A study of Mus musculus with 28 samples.

Results

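The libraries described here are 16 of 28 islet RNA libraries, divided into 2 classes of 8 by their relative amounts of Ins1 and Ins2 RNA. They were chosen by a measured value: among the libraries labelled βKlf6KO plus the libraries labelled control S961 replicates 4 and 6, a library was called low-ratio where log2 Ins1 minus log2 Ins2 was at or under -1.5, and high-ratio where it was above. All 28 libraries came from islets of male mice aged 10 to 12 weeks on a mixed C57Bl6 and 129sv background, 1 library per mouse. Every mouse carried floxed alleles of Klf6. The low-ratio class held 7 libraries labelled βKlf6KO S961 and 1 labelled βKlf6KO saline. The high-ratio class held 5 labelled βKlf6KO saline, 1 labelled βKlf6KO S961 and 2 labelled control S961. By the labels, βKlf6KO mice also carried Cre recombinase at 1 Ins1 allele, active in β cells, so that other islet cells keep Klf6, whereas control mice had no Cre. S961 is a peptide that blocks the insulin receptor, and saline was its vehicle. Of the 12 libraries outside the rule, all labelled control, 5 were low-ratio and 7 high-ratio at the same threshold, so a low ratio was not confined to libraries labelled as carrying Cre. Among those 7, control S961 replicates 2 and 8 and control saline replicate 4 were low in insulin RNA. Ins2 held 0.43%, 1.16% and 0.86% of their reads, against 4.15% to 14.6% in the rest of the 12. Their part in the values given for the 12 was not tested beyond counts of calls.

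Mice make insulin from the genes Ins1 and Ins2, and both are read almost only in β cells. Cre placed in an Ins1 allele takes that allele out of insulin production, so the ratio of Ins1 to Ins2 RNA is a stand-in for Cre that does not use the labels. Klf6 is a zinc-finger transcription factor of the Krüppel-like family. Adult β cells seldom divide, and blocking the insulin receptor is known to raise their division in mice. The 16 libraries were named for proliferation, so a high level of mitosis genes in all 16 is part of how they were picked. The choice also bears on the difference between the 2 classes in these genes. The only libraries labelled control that were kept, S961 replicates 4 and 6, were both high-ratio. Their mean over the mitosis genes was 2.06 and 2.40 log2 CPM, against -1.15 to 0.71 in the 12 control libraries left out. Both values lay within the range of the high-ratio libraries labelled βKlf6KO, 1.66 to 2.83.

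The ratio is given as a description, since it made the classes. Ins1 minus Ins2 stood at -2.19, -2.25, -1.63, -1.98, -2.12, -2.24 and -2.20 in the libraries labelled βKlf6KO S961 replicates 2 to 8 and at -1.81 in βKlf6KO saline replicate 1. It stood at -0.86 in βKlf6KO S961 replicate 1, at -1.26, -1.13, -1.24, -1.05 and -1.26 in βKlf6KO saline replicates 2 to 6, and at -1.01 and -1.36 in control S961 replicates 4 and 6. The library just inside the threshold was βKlf6KO S961 replicate 4 at -1.63, and the one just outside was control S961 replicate 6 at -1.36. Ins1 averaged 13.66 ± 0.53 log2 CPM in low-ratio libraries and 14.81 ± 0.47 in high-ratio libraries (SD, n = 8 each). Ins2 averaged 15.71 ± 0.75 log2 CPM in low-ratio libraries and 15.95 ± 0.61 in high-ratio libraries. CPM are reads over the size of the library, with the authors' scaling, and neither insulin gene was counted among the results that follow.

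**Figure D1:**
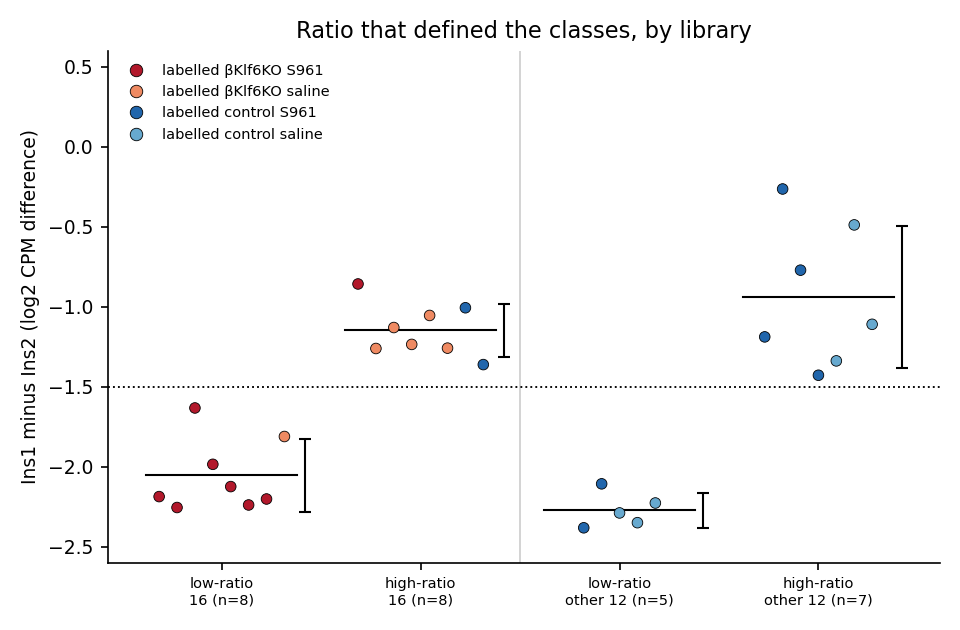
Ins1 minus Ins2 on the log2 CPM scale in each of 28 libraries, coloured by labelled group. Horizontal lines are class means, vertical bars are 1 SD, and the dotted line is the threshold of -1.5; the 8 low-ratio libraries lie between -2.25 and -1.63 and the 8 high-ratio libraries between -1.36 and -0.86.

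Class and label were tied. Of the low-ratio libraries 7 of 8 were labelled S961, and of the high-ratio libraries 5 of 8 were labelled saline, so class and labelled treatment cannot be fully told apart. Every p below describes these libraries as divided by ratio and is no test of genotype or of S961. Sequencing lane was even, with 2 low-ratio and 2 high-ratio libraries in each of lanes 4, 5, 6 and 7. Reads over the listed genes ranged from 31392171 to 45001633 in low-ratio libraries and from 30415583 to 40239223 in high-ratio libraries. The largest component of variation held 38.4% of the variance, and its loadings followed the GC content of the transcripts (Spearman's rho 0.81 across 13584 genes, which share the same libraries). Scores on it overlapped between the classes, at -61.7 to 35.8 in low-ratio libraries and -48.6 to 35.3 in high-ratio libraries. The lowest score of each class belonged to the libraries labelled βKlf6KO S961 replicates 4 and 1, and the part of this component in the results was not tested beyond the fits named below. β-cell genes were abundant throughout: the β-cell identity list summed to 68894 to 93250 CPM in low-ratio libraries and 80222 to 98987 CPM in high-ratio libraries. RNA of exocrine acinar cells was present too, at a sum of 22916 to 136772 CPM in low-ratio libraries and 18999 to 55102 CPM in high-ratio libraries.

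RNA of the floxed gene did not separate the classes. Klf6 (ENSMUSG00000000078, GRCm38 chromosome 13, 5861482 to 5870394, plus strand) had 6.65, 6.38, 7.52, 7.01, 7.55, 7.22 and 7.94 log2 CPM in βKlf6KO S961 replicates 2 to 8 and 6.69 in βKlf6KO saline replicate 1. Among high-ratio libraries it had 7.46 in βKlf6KO S961 replicate 1, 6.84, 7.13, 7.41, 6.79 and 6.95 in βKlf6KO saline replicates 2 to 6, and 6.75 and 6.21 in control S961 replicates 4 and 6. The classes overlapped over most of their range. Mean Klf6 was 7.12 ± 0.53 log2 CPM in low-ratio libraries and 6.94 ± 0.40 in high-ratio libraries (SD, n = 8 each), a difference of 0.18 with a two-sided exact permutation p of 0.458. Within lanes 4 to 7 the difference was 0.0035, -0.15, 0.16 and 0.71, so its sign was not fixed. With the labelled group as a covariate it was -0.30. Among the other 12 libraries the low-ratio minus high-ratio difference was -0.46 ± 0.30 (SE). The sources used here do not say which exons the loxP sites flank, and whole islets hold cells in which Cre does not act. The share of β cells and the Klf6 RNA per β cell therefore cannot be told apart in these bulk values.

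Sult1d1, which encodes a cytosolic sulfotransferase that acts on dopamine and related compounds, was lower in low-ratio libraries. It was the 1 gene of 13589 called at an adjusted p below 0.05, which is 0.00736% of the genes tested (limma, Benjamini-Hochberg). Sult1d1 (ENSMUSG00000029273, GRCm38 chromosome 5, 87554645 to 87569027, minus strand) had 6.54, 6.11, 6.22, 6.19, 6.09, 6.20 and 5.82 log2 CPM in βKlf6KO S961 replicates 2 to 8 and 6.57 in βKlf6KO saline replicate 1. Among high-ratio libraries it had 7.53 in βKlf6KO S961 replicate 1, 7.08, 7.0, 7.03, 7.40 and 6.89 in βKlf6KO saline replicates 2 to 6, and 7.15 and 7.18 in control S961 replicates 4 and 6. All 8 low-ratio libraries lay below all 8 high-ratio libraries, whatever their labels. The 1 high-ratio library labelled βKlf6KO S961 was the highest of the 16, and the 1 low-ratio library labelled saline was the highest of its class. Mean Sult1d1 was 6.22 ± 0.25 log2 CPM in low-ratio libraries and 7.16 ± 0.21 in high-ratio libraries (SD, n = 8 each), a difference of -0.94 ± 0.11 (SE, limma adjusted p = 0.00163), or 0.52 of the high-ratio level. Reads behind these values ran from 1638 to 3957 per low-ratio library and from 4392 to 5678 per high-ratio library.

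The lower Sult1d1 level held within each lane, at -0.94, -0.67, -1.01 and -1.13 in lanes 4 to 7. It also held within labels: in libraries labelled βKlf6KO S961 the 7 low-ratio libraries averaged 6.17 log2 CPM and the 1 high-ratio library had 7.53, and in those labelled βKlf6KO saline the 1 low-ratio library had 6.57 and the 5 high-ratio libraries averaged 7.08. The 12 libraries outside the rule, which share none with the 16, gave the same direction: 6.13 ± 0.47 log2 CPM in 5 low-ratio libraries and 7.30 ± 0.60 in 7 high-ratio libraries (SD), a difference of -1.17 ± 0.29 (SE) that did not pass adjustment over all genes (limma adjusted p = 0.127). The 2 differences differed by 0.23 ± 0.29 (SE, limma adjusted p = 0.536). With the labelled group as a covariate the difference stayed at -0.94, but its adjusted p was 0.594.

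The promoter of Sult1d1 is shown because this gene carried the only call. The window runs from 250 bases before to 50 bases after the gene start in RefSeq (GRCm38.p6, chr5:87568957-87569256, minus strand) and is printed 5′ to 3′ on the gene's strand. Capitals mark TAAT or its reverse complement ATTA, the core that homeodomain factors such as Pdx1 are known to bind; neighbouring matches overlap.
Sult1d1: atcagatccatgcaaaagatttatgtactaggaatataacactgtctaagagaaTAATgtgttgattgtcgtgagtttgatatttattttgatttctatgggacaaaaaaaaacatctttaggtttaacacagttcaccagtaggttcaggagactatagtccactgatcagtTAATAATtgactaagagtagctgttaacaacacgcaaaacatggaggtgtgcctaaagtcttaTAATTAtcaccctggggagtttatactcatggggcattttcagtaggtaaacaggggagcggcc
The window held 5 matches, at a GC content of 37.0%. At least 1 match was in 58.3% of 27025 RefSeq promoter windows of this length, so a match describes the letters only.

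Sult1b1, a related sulfotransferase gene 0.041 Mb away on chromosome 5, was chosen for mention after its values were seen. It averaged 1.12 ± 0.18 log2 CPM in low-ratio libraries and 1.61 ± 0.24 in high-ratio libraries (SD, n = 8 each), with overlap between the classes (difference -0.49 ± 0.12 SE, limma adjusted p = 0.292). Among the other 12 libraries its difference was -0.97 ± 0.28 (limma adjusted p = 0.127). The genes are paralogs, and the treatment of reads that match both is not stated in those sources. The Ugt2b34, Ugt2b35 and Ugt2b36 genes farther along the same stretch had differences of -0.23, -0.15 and 0.10.

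**Figure D2:**
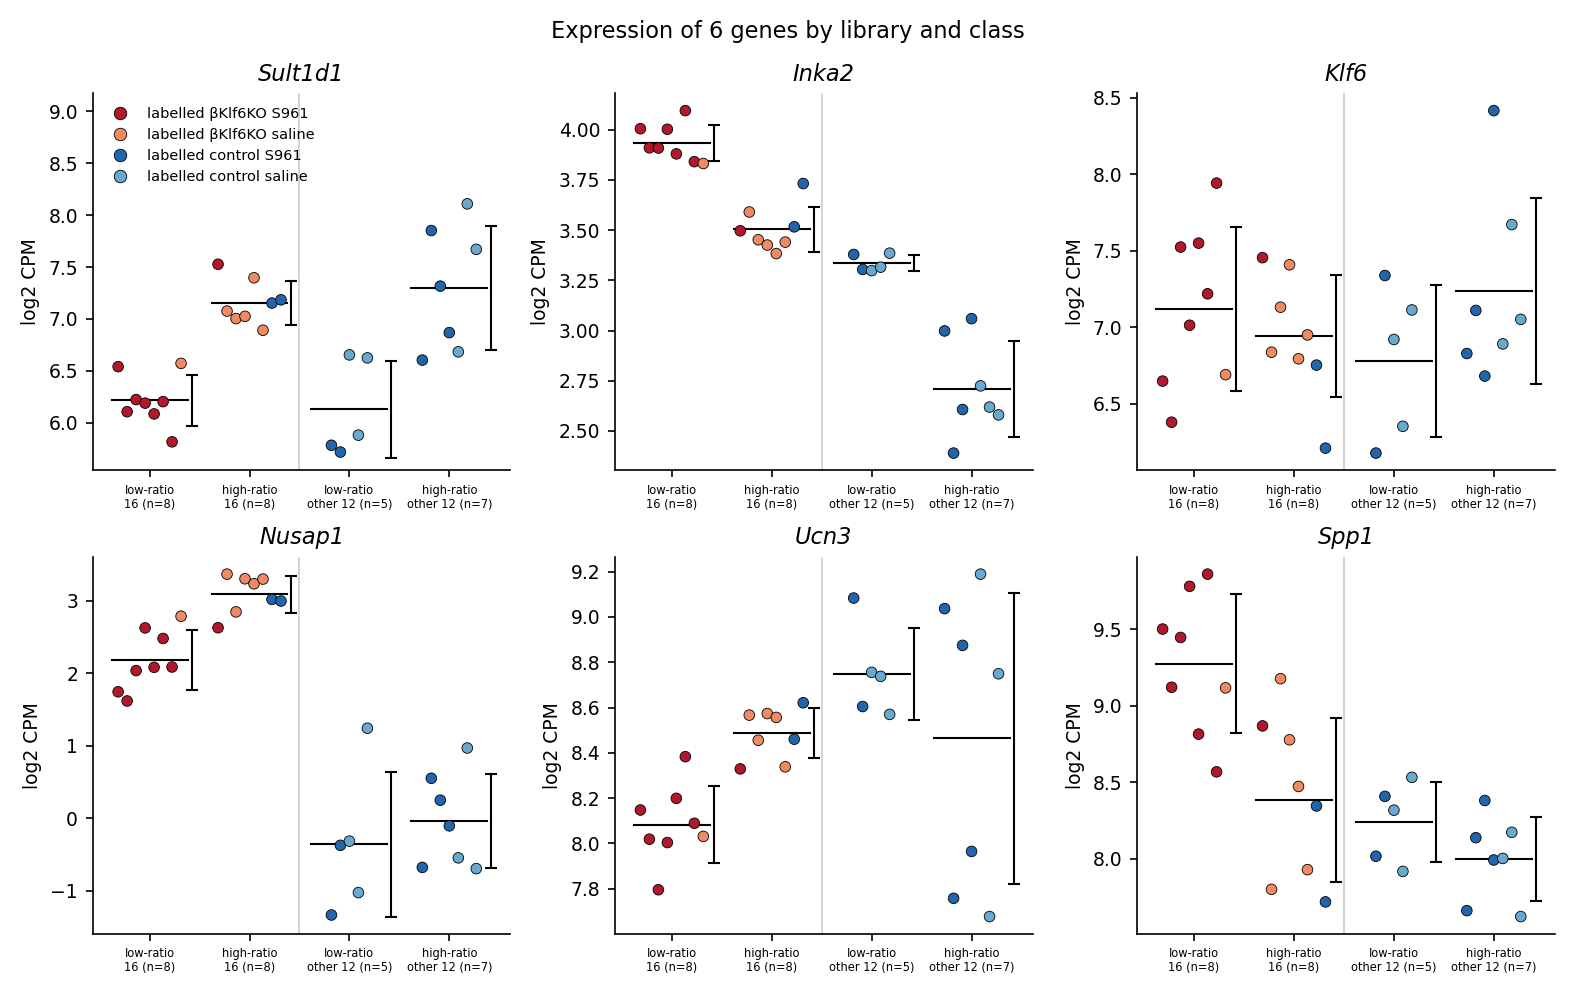
Log2 CPM of Sult1d1, Inka2, Klf6, Nusap1, Ucn3 and Spp1 in each library, by ratio class in the 16 libraries and in the other 12, coloured by labelled group; lines are means and bars 1 SD. Sult1d1 is at 5.82 to 6.57 in the 8 low-ratio libraries and 6.89 to 7.53 in the 8 high-ratio libraries, while Klf6 overlaps throughout.

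A complete separation of the classes was rare. All 8 low-ratio libraries lay above all 8 high-ratio libraries for 7 genes (0.0515% of those tested) and below them for 5 genes (0.0368%), Sult1d1 among the 5. The others were picked for this separation, so their values are descriptions. Inka2, which encodes an inhibitor of the kinase Pak4, had 3.83 to 4.10 log2 CPM in low-ratio libraries, with a median of 3.91, and 3.38 to 3.73 in high-ratio libraries, with a median of 3.47. Its difference was 0.43 ± 0.069 (SE, limma adjusted p = 0.0544). In the other 12 libraries Inka2 had 3.30 to 3.39 log2 CPM in low-ratio libraries and 2.39 to 3.06 in high-ratio libraries (difference 0.63 ± 0.13 SE, limma adjusted p = 0.127). The share of all genes that separated those 5 and 7 libraries is not given here. At an unadjusted p below 0.05, 20.3% of all genes were higher in the low-ratio libraries of that set (limma). Evc, a gene of the primary cilium, had -0.43 to 0.39 log2 CPM in low-ratio libraries and -1.69 to -0.60 in high-ratio libraries, from 30 to 53 reads and 10 to 24 reads. Its difference was 1.03 ± 0.19 in the 16 libraries and 1.10 ± 0.24 in the other 12 (limma adjusted p = 0.127). Of the 12 genes without overlap, 9 had the same sign in the other 12 libraries. The share of all genes that kept their sign is not given here, so this count is a description only. The remaining ones above were Mapk4, Serpine2, Iffo2, Ccnj and Slc22a15, and those below were Rps24-ps3, Anxa5, Pde6d and Pea15a, with differences between -0.41 and 0.64.

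At an unadjusted p below 0.05, 549 genes (4.04%) were higher and 398 (2.93%) lower in low-ratio libraries. Among the other 12 libraries 2757 genes (20.3%) were higher and 2567 (18.9%) lower at that level, but none (0%) passed adjustment. Leaving out the control libraries low in insulin RNA did not change that absence of calls. Of the 549 higher genes, 48 were also higher there, which is 8.74% of the 549, against 20.3% of all genes, and 1.74% of the 2757. Of the 398 lower genes, 65 were also lower there, which is 16.3% of the 398, against 18.9% of all genes, and 2.53% of the 2567. In both directions the shared part was thus no larger than that of all genes. The contrast itself differed between the 16 and the other 12 for no gene after adjustment (0%) and for 5307 genes (39.1%) at an unadjusted p below 0.05.

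Genes of mitosis formed the group with the lowest median. None of the 30 members was called, but all 30 were lower in low-ratio libraries and 28 of 30 had an unadjusted p below 0.05, against 2.93% of all genes lower at that level. The median difference of the list was -0.73, and that of all genes tested was -0.0089, with 52.7% of all genes below 0. The 30 genes share a cell-cycle programme, so they are not 30 separate observations. Nusap1, a spindle-associated protein, had 1.75, 1.62, 2.04, 2.63, 2.08, 2.48 and 2.09 log2 CPM in βKlf6KO S961 replicates 2 to 8 and 2.79 in βKlf6KO saline replicate 1. In high-ratio libraries Nusap1 had 2.63 in βKlf6KO S961 replicate 1, 3.37, 2.85, 3.31, 3.24 and 3.30 in βKlf6KO saline replicates 2 to 6, and 3.02 and 3.0 in control S961 replicates 4 and 6. All low-ratio libraries lay at or under 2.79 and 7 of 8 high-ratio libraries above it, the exception being the library labelled βKlf6KO S961. The Nusap1 difference was -0.91 ± 0.17 (SE, limma adjusted p = 0.0736).

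Other members were chosen after their values were seen. Ccnb1, cyclin B1, which drives entry into mitosis, had 1.63 to 2.53 log2 CPM in low-ratio libraries and 2.30 to 3.52 in high-ratio libraries (difference -0.87 ± 0.18 SE, limma adjusted p = 0.127). Prc1, which bundles microtubules during cell division, had 2.80 to 3.48 log2 CPM in low-ratio libraries and 3.31 to 4.06 in high-ratio libraries (difference -0.63 ± 0.12 SE). Mki67, the gene of the proliferation antigen Ki-67, had 2.79 to 4.18 log2 CPM in low-ratio libraries and 3.65 to 4.83 in high-ratio libraries (difference -0.74 ± 0.18 SE, limma adjusted p = 0.241). The smallest differences of the list were those of Bub1b (-0.43) and Melk (-0.44), and the members with an unadjusted p above 0.05 were Aurkb (-0.66 ± 0.32) and Foxm1 (-0.51 ± 0.27).

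**Figure D3:**
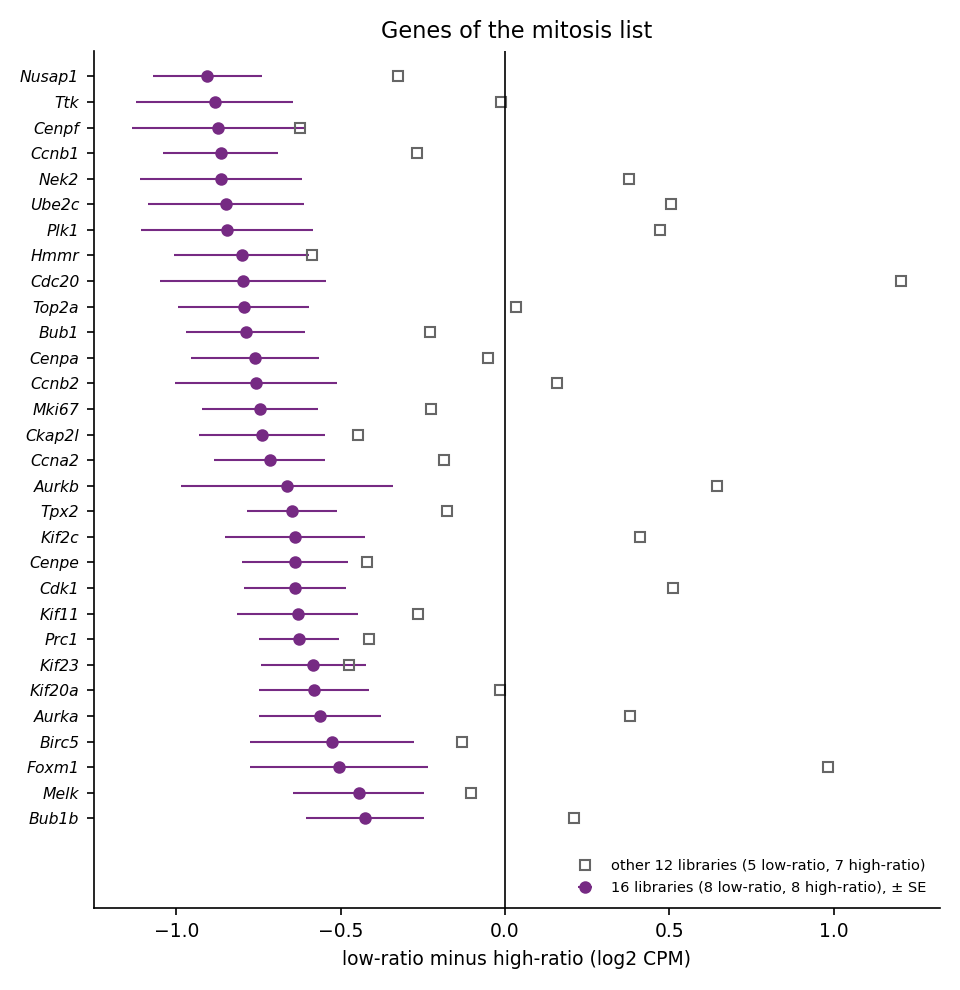
Low-ratio minus high-ratio difference in log2 CPM for each of the 30 genes of the mitosis list, in the 16 libraries (filled circles, with the standard error) and in the other 12 libraries (open squares). All 30 circles lie left of 0, with a median of -0.73, while 18 of 30 squares do, with a median of -0.08.

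The mean of the mitosis list per library ran from 1.19 to 2.0 log2 CPM in low-ratio libraries and from 1.66 to 2.83 in high-ratio libraries. The high-ratio library labelled βKlf6KO S961 was at 1.66, inside the low-ratio range, and the low-ratio library labelled saline was at 2.0, the top of its class. Within lanes 4 to 7 the difference of list means was -0.15, -0.79, -0.96 and -0.90. Within the libraries labelled βKlf6KO S961 it was -0.11 (7 low-ratio, 1 high-ratio), and within those labelled βKlf6KO saline -0.48 (1 low-ratio, 5 high-ratio). With the labelled group as a covariate the median member was at -0.31, and 2 of 30 had an unadjusted p below 0.05. Among libraries labelled S961 alone 14 of 30 did. That fit set 7 low-ratio libraries, all labelled βKlf6KO, against 1 high-ratio library labelled βKlf6KO and 2 labelled control. Class and labelled genotype were thus largely tied in it. The share of all genes at that level is not given here for fits with a covariate or with fewer libraries. In bulk islets a lower share of dividing cells and less RNA per dividing cell cannot be told apart. The summed level of the list was 91.6 to 168 CPM in the low-ratio libraries and 134 to 282 CPM in the high-ratio libraries. In the low-ratio and high-ratio libraries of the other 12 it was 20.5 to 68.4 CPM and 21.1 to 41.2 CPM. The higher level in the 16 is part of how they were picked and is no result. In those 12 the median member difference was -0.08, with 18 of 30 members below 0. The contrast differed between the 16 and the 12 at an unadjusted p below 0.05 for 10 of 30 members, against 39.1% of all genes, and for none after adjustment (limma).

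Promoters of a pair of these genes are shown because all 30 members lay on the same side of 0. CCAAT boxes and the element TTTGAA, known as the cell cycle genes homology region, are elements found in promoters of many late cell-cycle genes. Capitals mark CCAAT or its reverse complement ATTGG, and TTTGAA or TTCAAA, in RefSeq windows of GRCm38.p6 read 5′ to 3′ on the gene's strand. The Ccnb1 window is chr13:100786437-100786736 (minus strand), and the Prc1 window is chr7:80294201-80294500 (plus strand); matches to the 2 motifs do not overlap in them.
Ccnb1: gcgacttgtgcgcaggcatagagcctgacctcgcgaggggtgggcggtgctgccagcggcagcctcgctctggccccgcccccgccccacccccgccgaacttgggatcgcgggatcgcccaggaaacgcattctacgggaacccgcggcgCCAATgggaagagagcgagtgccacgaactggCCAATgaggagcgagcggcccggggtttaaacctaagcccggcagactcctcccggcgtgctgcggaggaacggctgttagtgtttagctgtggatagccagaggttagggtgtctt
Prc1: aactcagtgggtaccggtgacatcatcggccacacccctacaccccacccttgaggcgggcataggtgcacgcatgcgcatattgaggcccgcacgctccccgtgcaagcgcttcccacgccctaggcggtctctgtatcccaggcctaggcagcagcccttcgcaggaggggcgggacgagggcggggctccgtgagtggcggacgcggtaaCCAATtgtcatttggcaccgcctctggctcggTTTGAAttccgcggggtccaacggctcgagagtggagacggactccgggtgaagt
Ccnb1 had 2 matches to CCAAT and 0 to TTTGAA in this window, and Prc1 had 1 of each. Of the 30 mitosis genes, 25 had a RefSeq window: 21 of 25 held CCAAT, against 37.9% of all 27025 windows and 38.5% of the 10449 windows of tested genes. For TTTGAA it was 18 of 25, against 18.1% of all windows and 11.7% of those of tested genes. These shares belong to the list and do not depend on the libraries, so they say nothing about the classes.

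DNA replication genes were closer to no difference. Of 30 tested, 25 were lower and 4 had an unadjusted p below 0.05, against 2.93% of all genes lower at that level, with a median of -0.09 and none called. The direction depended on the fit: 9 of 30 were below 0 with the labelled treatment as a covariate (median 0.07), 10 among libraries labelled S961 alone (median 0.08) and 12 with the labelled group as a covariate (median 0.05). Without βKlf6KO saline replicate 6 the median was -0.04. Cdc45, a subunit of the replicative helicase, averaged 1.88 ± 0.16 log2 CPM in low-ratio libraries and 2.22 ± 0.29 in high-ratio libraries (difference -0.34 ± 0.12 SE, limma adjusted p = 0.559). The library labelled βKlf6KO S961 replicate 1 was at 1.59, far below the others of its class. Among D cyclins and their kinases, 3 of 5 were lower and 1 of those, Ccnd1, had an unadjusted p below 0.05. Ccnd1 averaged 7.08 ± 0.11 log2 CPM in low-ratio libraries and 7.28 ± 0.10 in high-ratio libraries (difference -0.20 ± 0.062 SE, limma adjusted p = 0.456). Cell-cycle inhibitors and p53 targets went both ways, with 10 of 19 higher and 9 lower. Cdkn1a, which encodes the kinase inhibitor p21, had 7.01 to 8.01 log2 CPM in low-ratio libraries and 6.71 to 7.21 in high-ratio libraries, with medians of 7.26 and 6.95. Its difference was 0.43 ± 0.13 (SE, limma adjusted p = 0.395) in the 16 libraries and 0.50 in the other 12.

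Most genes of β-cell identity lay slightly below 0. None of 39 was called, 38 were below 0, against 52.7% of all genes, and 5 had an unadjusted p below 0.05, against 2.93% of all genes lower at that level, at a median of -0.16. With the labelled group as a covariate 31 of 39 were below 0 and 1 had an unadjusted p below 0.05 (median -0.09). Among libraries labelled S961 alone 11 did (median -0.30). The share of all genes at that level in these fits is not given here. Ucn3, urocortin 3, a hormone of mature β cells, had 8.15, 8.02, 7.79, 8.00, 8.20, 8.38 and 8.09 log2 CPM in βKlf6KO S961 replicates 2 to 8 and 8.03 in βKlf6KO saline replicate 1. In high-ratio libraries it had 8.33 in βKlf6KO S961 replicate 1, 8.57, 8.46, 8.57, 8.56 and 8.34 in βKlf6KO saline replicates 2 to 6, and 8.46 and 8.62 in control S961 replicates 4 and 6. A single low-ratio library, βKlf6KO S961 replicate 7, reached the high-ratio range. The Ucn3 difference was -0.40 ± 0.077 (SE, limma adjusted p = 0.091), and -0.48, -0.44, -0.49 and -0.21 within lanes 4 to 7. In the other 12 libraries it was 0.29, opposite in sign (limma adjusted p = 0.402), and the test of the change between the sets gave a limma adjusted p of 0.116. Pdx1, a master regulator of β cells chosen here after its values were seen, averaged 6.51 ± 0.15 log2 CPM in low-ratio libraries and 6.78 ± 0.19 in high-ratio libraries (difference -0.26 ± 0.087 SE, limma adjusted p = 0.490). The glucose transporter gene Slc2a2 had a difference of -0.26 and the islet amyloid gene Iapp one of -0.21, both also chosen after their values were seen.

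Most genes of the secretory lists were also below 0, with none called. Of 26 genes of endoplasmic reticulum chaperones and the unfolded protein response, 25 were lower and 3 had an unadjusted p below 0.05, against 2.93% of all genes lower at that level, at a median of -0.15. With the labelled group as a covariate none of the 26 did (median -0.08). Pdia4, a disulfide isomerase, averaged 7.77 ± 0.10 log2 CPM in low-ratio libraries and 7.98 ± 0.11 in high-ratio libraries (difference -0.20 ± 0.061 SE, limma adjusted p = 0.402). Of 27 granule and exocytosis genes, 24 were lower and none had an unadjusted p below 0.05, and with the labelled group as a covariate 16 of 27 were lower. Syt7, a calcium sensor of exocytosis, had a difference of -0.22 ± 0.10. Of 23 genes of glucose metabolism and its sensor ChREBP, 20 were lower, at a median of -0.17 in the 16 libraries and 0.65 in the other 12. The median of that list was above 0 among libraries labelled S961 alone (0.05), without the library nearest the threshold on each side (0.0037) and with the ratio as a continuous term (0.09), and it was -0.04 without βKlf6KO S961 replicate 4 and -0.11 without βKlf6KO saline replicate 2.

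Most genes that β cells normally keep silent lay above 0. Of 18 such disallowed genes, 16 were higher in low-ratio libraries and 5 had an unadjusted p below 0.05, against 4.04% of all genes, at a median of 0.44 and with none called. With the labelled group as a covariate none of the 18 had an unadjusted p below 0.05 (median 0.30), and 2 did with the replicate block (0.27), among libraries labelled βKlf6KO alone (0.26) and without the library nearest the threshold on each side (0.29). Among libraries labelled S961 alone, where the high-ratio class held 1 library labelled βKlf6KO and 2 labelled control, 11 did (0.90). The share of all genes at that level in these fits is not given here. Slc16a1, a lactate and pyruvate transporter, averaged 2.98 ± 0.45 log2 CPM in low-ratio libraries and 2.24 ± 0.54 in high-ratio libraries (difference 0.74 ± 0.23 SE, limma adjusted p = 0.456). Nfib, a transcription factor, had a difference of 0.68 ± 0.21. In the dedifferentiation and progenitor list 8 of 11 were higher and 4 had an unadjusted p below 0.05, against 4.04% of all genes. None of the 11 did with the labelled group as a covariate (median 0.12) or with the replicate block, and 1 did among libraries labelled βKlf6KO alone (median 0.19). Rest, a repressor of neuronal genes, had a difference of 0.68 ± 0.23. The progenitor factor Sox9, chosen after its values were seen, had the highest of this list, 0.71 ± 0.28, and the lowest was -0.26. These genes are also read in other pancreatic cells, whose markers were also higher and are given next; their part in these values was not tested.

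Fibroblast and acinar markers had the highest list medians. Of 26 fibroblast and stellate-cell matrix genes, 25 were higher and 10 had an unadjusted p below 0.05, against 4.04% of all genes higher at that level, at a median of 0.50, with none called. Their summed level was 413 to 567 CPM in low-ratio libraries and 245 to 680 CPM in high-ratio libraries, so the ranges overlapped, and none of the 26 was at 0 reads in any of the 16. Col6a3, a collagen chain, averaged 4.98 ± 0.25 log2 CPM in low-ratio libraries and 4.55 ± 0.23 in high-ratio libraries (difference 0.43 ± 0.12 SE, limma adjusted p = 0.323). Within lanes 4 to 7 the list mean differed by 0.45, 0.83, 0.77 and -0.07, and with the labelled group as a covariate 2 of 26 had an unadjusted p below 0.05. All 21 acinar genes were higher, at a median of 0.49, but 3 had an unadjusted p below 0.05, against 4.04% of all genes, and the summed ranges given above overlapped. The direction of the acinar list turned with the labelled group as a covariate, where 18 of 21 were below 0 (median -0.14). Its median was 0.19 with the replicate block, with 15 of 21 above 0, 0.26 among libraries labelled βKlf6KO alone, 1.05 among libraries labelled S961 alone and 0.27 without βKlf6KO S961 replicate 8. Spink1, a trypsin inhibitor of acinar cells, had a difference of 0.91 ± 0.34 (SE). Of 15 ductal genes 11 were higher and 2 had an unadjusted p below 0.05, at a median of 0.43. That direction turned too with the labelled group as a covariate, where 10 of 15 were below 0 (median -0.07), and the median was 0.07 with the replicate block. Without βKlf6KO S961 replicates 7 or 8 or control S961 replicate 4 it was 0.25, 0.17 and 0.26. Spp1, osteopontin, a secreted phosphoprotein of duct cells, had 8.57 to 9.86 log2 CPM in low-ratio libraries and 7.72 to 9.18 in high-ratio libraries (difference 0.89 ± 0.23 SE, limma adjusted p = 0.292).

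**Figure D4:**
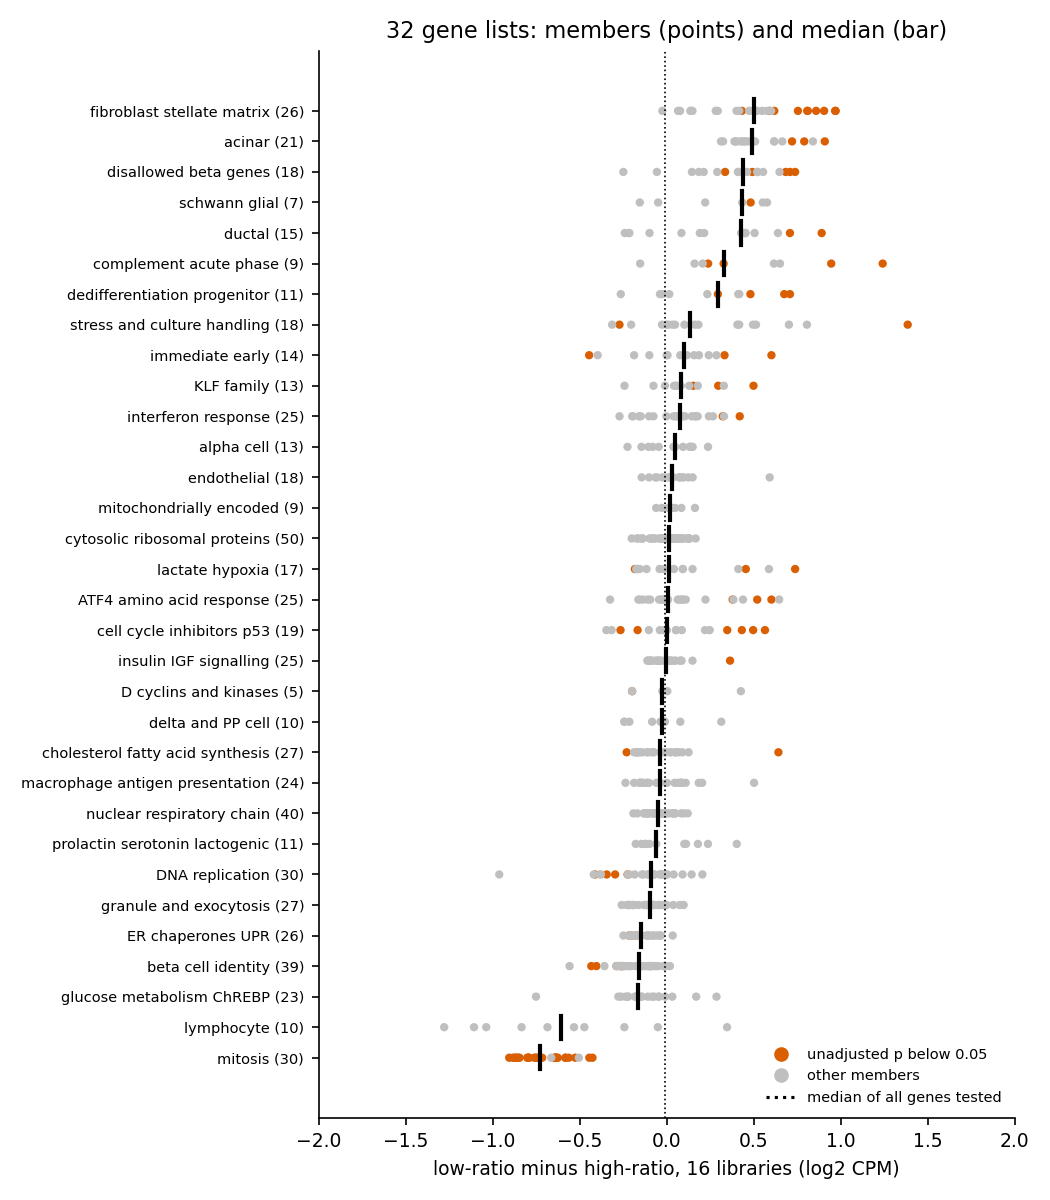
Low-ratio minus high-ratio difference in log2 CPM over the 16 libraries for the members of 32 gene lists, with the number tested in brackets; bars are list medians, orange points have an unadjusted p below 0.05, and the dotted line is the median of all genes. The mitosis list has the lowest median, at -0.73, and the fibroblast and stellate matrix list the highest, at 0.50.

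Lymphocyte markers varied widely within both classes. Of 10 lymphocyte genes tested, 9 were lower in low-ratio libraries, at a median of -0.61, and none had an unadjusted p below 0.05. The median of the lymphocyte list was above 0 with the labelled treatment (0.49) or the labelled group (0.99) as a covariate and among libraries labelled S961 alone (0.52), and without 1 library at a time it ran from -1.04 to -0.23, nearest to 0 without βKlf6KO saline replicates 3 or 6. Their summed level was 7.7 to 1077 CPM in low-ratio libraries and 5.8 to 843 CPM in high-ratio libraries. Cd22, a B-cell receptor, had a difference of -0.83 ± 0.50. Of 24 macrophage and antigen-presentation genes 11 were higher and none had an unadjusted p below 0.05, and Cd14 had a difference of 0.50 ± 0.29. In the complement and acute-phase list 8 of 9 were higher and 4 had an unadjusted p below 0.05, against 4.04% of all genes. Lcn2, lipocalin 2, an iron-binding protein of innate defence, had 0.29 to 3.03 log2 CPM in low-ratio libraries and -0.59 to 1.23 in high-ratio libraries (difference 1.24 ± 0.32 SE, limma adjusted p = 0.292).

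No member of the remaining lists was called. In the Krüppel-like family 10 of 13 were higher, at a median of 0.08, and 3 had an unadjusted p below 0.05, against 4.04% of all genes, while with the labelled group as a covariate 6 of 13 were higher and none did. Klf4, a member linked to arrest of the cell cycle, had a difference of 0.50 ± 0.20 (limma adjusted p = 0.615). Atf3, a stress-induced factor, had a difference of 0.60 ± 0.23. Fos, an immediate-early gene, had one of -0.45 ± 0.16, whereas 9 of 14 immediate-early genes were higher. Dnajb1, a heat-shock co-chaperone, had one of -0.27 ± 0.090, whereas 13 of 18 genes of its stress list were higher. Scd1, which desaturates fatty acids, had a difference of 0.64 ± 0.20, whereas 18 of 27 genes of its lipid synthesis list were lower. Igf2, a growth factor, had one of 0.36 ± 0.16. The lists of insulin signalling, nuclear respiratory chain, mitochondrially encoded and cytosolic ribosomal genes had medians between -0.05 and 0.02, with 1 gene among them, Igf2, at an unadjusted p below 0.05. Their representatives by smallest p were Rpl22 (0.13), Sdhd (-0.10) and mt-Nd2 (0.16). The other genes named by the rule were Dpp4 (-0.23), Fxyd6 (-0.24), Fkbp5 (-0.12), Bst2 (0.42), Vwf (0.59) and, from 7 Schwann-cell and glial genes with a median of 0.43, Erbb3 (0.48). Dpp4 came from an α-cell list in which 8 of 13 genes were higher.

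Genes near the 2 engineered loci were also read. Around Ins1 on chromosome 19, 3 of 31 genes tested within 5 Mb (9.68%) had an unadjusted p below 0.05 in either direction. Within 10 Mb it was 8 of 118 (6.78%), against 6.97% of all genes, and none was called. Around Klf6 on chromosome 13 it was 7 of 20 within 5 Mb (35%) and 7 of 39 within 10 Mb (17.9%), again with none called. A block of 6 tested genes next to each other, Ucn3, Akr1c14, Akr1c13, Akr1c19, Akr1c12 and Akr1e1 (GRCm38 chromosome 13, 3940688 to 4609174, 1.25 to 1.92 Mb from the Klf6 start), held 6 of those 7. All 6 were lower in low-ratio libraries, with differences of -0.40 ± 0.077, -0.43 ± 0.16, -0.39 ± 0.089, -0.49 ± 0.15, -0.31 ± 0.10 and -0.20 ± 0.087 (SE). The block was noticed in the data and is a description. The Akr1 genes encode aldo-keto reductases and are close copies of each other, so reads may be shared among them and the values are uncertain as separate measurements. In the other 12 libraries the 5 Akr1 genes were lower as well, by -0.64, -0.52, -0.42, -0.48 and -0.51 in the same order, while Ucn3 went the other way (0.29). Each Akr1 gene had an unadjusted p below 0.05, a level that 18.9% of all genes reached in that direction. Lower levels were not confined to the block. In those 12 libraries 13 of 20 genes within 5 Mb of Klf6 were lower at an unadjusted p below 0.05 (limma). Within 10 Mb it was 23 of 39, against 18.9% of all genes lower at that level. Both counts include the 5 Akr1 genes, and the cause was not tested.

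**Figure D5:**
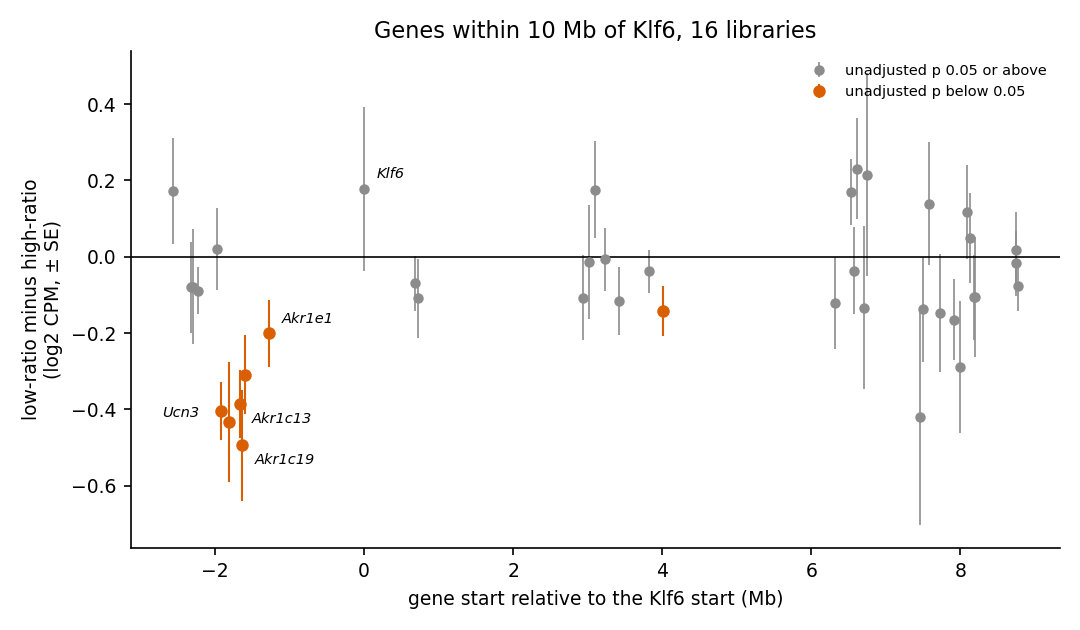
Low-ratio minus high-ratio difference in log2 CPM (with the standard error) for tested genes within 10 Mb of Klf6, against the distance of each gene start from the Klf6 start. The 6 orange points left of Klf6 are Ucn3 and 5 Akr1 genes, at -0.49 to -0.20, and Klf6 itself is at 0.18.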

How the data were processed

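RNA from islets of 28 mice was sequenced on poly(A) libraries prepared with strand information, with single-end reads of 125 bp, and 120 to 150 hand-picked islets per mouse were used after a night in culture, per the labels' protocols. The authors deposited 1 table of log2 CPM for 14219 genes. The submitters' processing notes name STAR 2.5.3a, HTSeq 0.9.1 and edgeR on GRCm38; strand counting is not stated there, which leaves antisense and overlapping genes uncertain. The log2 values deposited gave back whole reads within 0.05 for 100% of values, 28868638 to 45001633 per library, and a count of 0 allows up to 3 reads, or 0.069 to 0.105 CPM, which covers counting error only.

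Genes were named by Ensembl ID in GENCODE M21, which held 14210 of the IDs and differed from the table's symbol for 1271. A gene was kept where 6 or more of the 28 libraries had 1 CPM or above, leaving 13589 without Ins1 and Ins2. Differences are low-ratio minus high-ratio on the log2 scale, from limma 3.58.1 in R 4.3.3 with an intensity trend, fitted to the 16 libraries, two-sided, with Benjamini-Hochberg adjustment over all genes. The fit was tested on simulated data. Klf6 was compared by an exact permutation test over 12870 divisions. The members, the 32 gene lists and the tests were chosen with earlier results of these data known. Genes named by rule were Klf6, called genes with at least 4 CPM, and from each list the called members or the 1 member of smallest p; others are said to be chosen after their values were seen, and 1 gene named by the rule is not reported here. No pair of the 86 within labelled groups agreed within sampling noise (chi-square per degree of freedom at least 32.1). Figures were drawn with matplotlib.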

Additional observations from a re-analysis of the deposited data

Results flagged for a closer look

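In 120 sets of 8 values, a gene or the ratio in 1 ratio class of the 16 libraries, 5 had a library whose gap to the nearest other exceeded Dixon's 95% limit, and chance alone gives about 1 in 20. Fxyd6 stood at 6.21 log2 CPM in βKlf6KO S961 replicate 4, the lowest low-ratio library. The high-ratio library βKlf6KO S961 replicate 1 was lowest in its class for Cdc45 (1.59 log2 CPM), Ccna2 (2.67) and Asphd2 (-4.36, from 1 read). Col1a1 was highest in its class in βKlf6KO saline replicate 6, at 4.33 log2 CPM.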

How the results depend on the processing

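Of 1355 values of 34 named genes under alternatives, 1336 kept their direction and their side of the threshold. The 1 call, Sult1d1, passed in 37 of 40 alternatives, with differences of -1.12 to -0.88. It did not pass with all 28 libraries in 4 classes (adjusted p = 0.0766), with only libraries labelled S961 (0.0863) or with the labelled group as a covariate (0.594), each giving 0 calls; without 1 library at a time its adjusted p was 8.44e-04 to 0.00699. Calls numbered 2 without the library nearest the threshold on each side, with no filter and with a filter at 5 CPM, 4 with lane as a covariate or the ratio as a continuous term, 5 with no intensity trend, 18 after GC correction in 20 bins (10 higher, 8 lower), 44 with library weights (15 higher, 29 lower) and 69 with the first principal component as a covariate (21 higher, 48 lower). Leaving out 1 library gave 1 to 6 calls, the most without βKlf6KO S961 replicate 1. The cause was not tested.

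The replicate block gave 1 call, Sult1d1 at -0.90. Same-numbered libraries did not deviate together in every pair (correlation -0.63 to 0.48 over 8 pairs, 4 of them above 0.1). Whether a shared number stands for anything beyond a sample name was not tested. An alternative chosen after seeing the data, without the 2 libraries of lowest insulin RNA (βKlf6KO S961 replicates 1 and 4), gave 1 call. In it 30 of 30 mitosis genes had an unadjusted p below 0.05, and the share of all genes at that level is not given here.

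Signs turned round with the labelled group as a covariate for Klf6 (-0.30), Cdc45 (0.0245), mt-Nd2 (-0.11), Spink1 (-0.20), Cd14 (-0.0155), Cd22 (0.20) and Erbb3 (-0.0279). The sign of mt-Nd2 also turned with only libraries labelled S961 (-0.0309), without the nearest libraries (-0.00357) and with a continuous ratio (-0.0782). The Klf6 difference was 0.061 to 0.284 without 1 library at a time. Counts of mitosis genes lower at an unadjusted p below 0.05 ran from 2 to 30 over the other alternatives and from 25 to 30 without 1 library; of fibroblast genes higher, from 2 to 16 and from 7 to 13; of β-cell identity genes lower, from 1 to 14 and from 3 to 9. Depth limits low genes such as Evc and Asphd2, at 1 to 78 reads per library.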

Other observations

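Asphd2, a gene of an aspartate β-hydroxylase domain protein, was chosen after its values were seen. It had -1.31 to 0.89 log2 CPM in low-ratio libraries and -4.36 to -1.04 in high-ratio libraries, from 16 to 78 reads and 1 to 16 reads, with overlap (difference 1.80 ± 0.42 SE, limma adjusted p = 0.216). In the other 12 libraries, which share none with the 16, its difference was 2.24 ± 0.45 (SE), and the test of the change between the sets gave a limma adjusted p of 0.585. With the ratio as a continuous term it was among the 4 genes called.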
